A study of Mus musculus with 47 samples.

Results

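Ncl, Npm1, Cdk4 and Odc1 are 4 genes long known as targets of the transcription factor Myc. The peaks at these genes were taken from ChIP-seq of mouse liver and of liver tumours in which Myc could be switched off. They were chosen by position, as all peaks overlapping 1 fixed window per gene in the mouse build mm9: chr1:88235000-88262000 for Ncl, chr11:33045000-33070000 for Npm1, chr10:126494000-126510000 for Cdk4 and chr12:17544000-17565000 for Odc1. In all, 256 of the 713214 peaks in 46 lists fell in these windows: 60 at Ncl, 55 at Npm1, 89 at Cdk4 and 52 at Odc1. No annotation in mm9 was used here, so positions are given relative to the peaks and not to exons or introns. In the annotation of the later build GRCm38.p6, Ncl lies between B3gnt7 and Nmur1, Npm1 between Fgf18 and Tlx3, Cdk4 between Marchf9 and Tspan31, and Odc1 between Nol10 and Hpcal1, counting protein-coding neighbours. The gene spans in that build are 14.7 kb for Ncl, 11.6 kb for Npm1, 3.75 kb for Cdk4 and 6.70 kb for Odc1. The Ncl span also contains small nucleolar RNA genes, among them Snora75 and Snord82.

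The mice were of the FVB strain, and by its title the series asks which genes Myc turns on or off in tumours that need it. There were 3 groups. Tumours with Myc off carried tet-Myc and LAPtTA and had been fed doxycycline for 16 h. Tumours with Myc on had the same genotype and expressed the transgene. Control livers were of mixed genotype: control liver 1 had a silent tet-Myc, control liver 2 had LAPtTA alone, and both control liver 3 and control liver 4 were wild type. LAPtTA is a transactivator active in liver, and expression had been started before birth. The protocol allows for a normal or a mutant form of tet-Myc, and which one a given tumour expressed is not stated. The material was pieces of tumour nodules or of liver, and nothing says whether each library had its own animal. The p-values therefore measure only how far these samples spread, which could be technical spread. In such bulk tissue, fewer cells with a peak and a weaker signal per cell cannot be told apart. The Myc antibody was used on 3 tumours with Myc off, 6 with Myc on and 4 control livers. Antibodies to RNA polymerase II (RNAPII), H3K4me3 and H3K27ac were each used on 3, 4 and 4. Markers of liver or tumour cells were not located here, so the labelled tissue was not checked against them.

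Myc binds DNA as a pair with its partner Max, most strongly at the 6 bases CACGTG, called the E-box, and at near variants such as CACGCG, mostly in promoters that are already open. RNAPII transcribes the genes, H3K4me3 is a histone mark of promoters, and H3K27ac marks active promoters and enhancers. Ncl encodes nucleolin and Npm1 nucleophosmin, both abundant nucleolar proteins that act in making ribosomes. Cdk4 encodes a kinase that with D-type cyclins drives cells out of the G1 phase. Odc1 encodes ornithine decarboxylase, the rate-limiting enzyme of polyamine synthesis.

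The RefSeq promoter table, in build GRCm38.p6, held 3 of the 4 genes. Their upstream sequences are shown because Myc peaks lay in the windows of all 4 genes and the number of E-boxes differed among these 3. Each is written 5′ to 3′ on the strand of its gene and ends at the annotated start. It runs over chr1:86359456-86359705, minus strand, for Ncl, over chr10:127063285-127063534, plus strand, for Cdk4, and over chr12:17544623-17544807, plus strand, for Odc1. Capitals mark CACGTG, or CACGCG on either strand.
Ncl: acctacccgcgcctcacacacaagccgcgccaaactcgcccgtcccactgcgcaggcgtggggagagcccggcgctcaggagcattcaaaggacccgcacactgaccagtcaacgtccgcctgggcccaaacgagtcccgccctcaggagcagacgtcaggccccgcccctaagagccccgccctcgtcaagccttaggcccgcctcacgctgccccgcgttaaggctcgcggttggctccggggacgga
Cdk4: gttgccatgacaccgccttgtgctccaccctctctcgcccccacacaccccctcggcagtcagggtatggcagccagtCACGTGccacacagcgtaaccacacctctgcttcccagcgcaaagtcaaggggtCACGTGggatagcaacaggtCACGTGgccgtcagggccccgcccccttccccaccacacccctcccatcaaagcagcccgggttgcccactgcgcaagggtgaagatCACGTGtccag
Odc1: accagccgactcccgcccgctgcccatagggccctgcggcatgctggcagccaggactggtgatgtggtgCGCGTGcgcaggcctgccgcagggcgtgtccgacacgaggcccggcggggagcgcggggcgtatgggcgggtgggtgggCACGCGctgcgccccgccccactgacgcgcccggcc
The Cdk4 sequence held 4 copies of CACGTG, beginning 172, 118, 98 and 11 bases before the start. At least 1 copy was found in 6.02% of 32851 promoters searched over up to 250 bases, on both strands, and at least 4 in 0.0213% of them, which is 7 promoters. The Odc1 sequence, 185 bases long, held CACGCG in 2 places, 1 of them as its reverse complement CGCGTG. At least 2 copies of this variant were found in 1.27% of promoters, and at least 1 in 7.62%. Neither motif overlaps the other. Neither was found in the 250 bases of Ncl, which says only that these letters are not in this stretch.

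With Myc on, all 6 tumours had Myc peaks in all 4 windows. At each gene, at least 1 stretch was under a Myc peak in every one of the 6. The main stretch of a gene was chosen as the one that the window's highest-scoring Myc peak overlapped in the most tumours. It spanned 2106 bp at Ncl (chr1:88254833-88256938), 816 bp at Npm1 (chr11:33061913-33062728), 813 bp at Cdk4 (chr10:126500231-126501043) and 721 bp at Odc1 (chr12:17551654-17552374). Npm1 and Odc1 each had 1 further stretch close by, and Cdk4 had 2 further ones, at chr10:126503577-126504025 and chr10:126507821-126508634. The last of these spanned 814 bp. The highest-scoring Myc peak of the window overlapped the main stretch in 6 of 6 tumours at Ncl, Npm1 and Odc1 and in 5 of 6 at Cdk4. These counts were the basis of the choice and are no separate result.

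**Figure D1:**
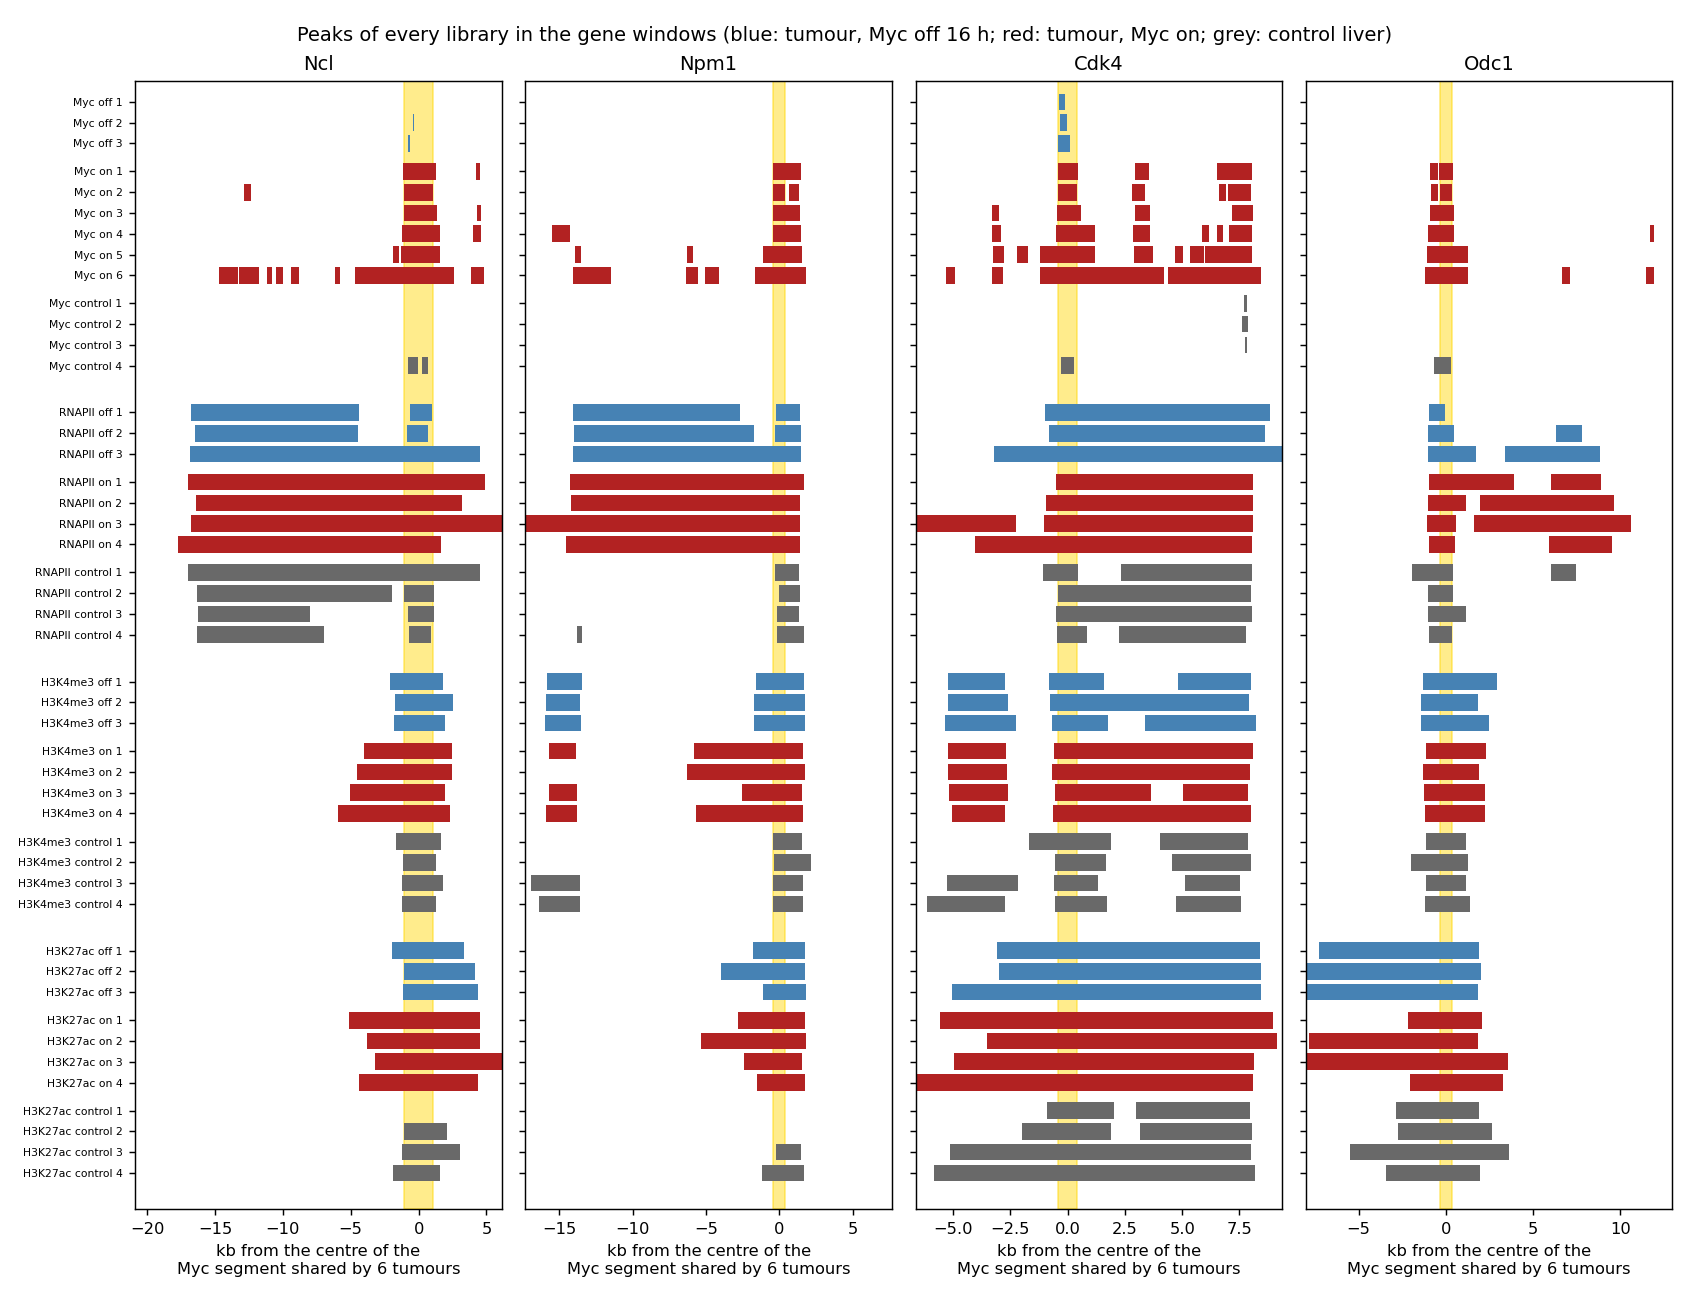
Peaks of each library (1 line each) in the 4 gene windows, by distance in kb from the centre of the main Myc stretch shared by the 6 tumours with Myc on (yellow band). Blue bars are tumours with Myc off for 16 h, red bars tumours with Myc on and grey bars control livers; Myc peaks are in all 6 tumours with Myc on, while H3K4me3 lies over the band in all 11 libraries.

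The Myc peaks of Ncl and Npm1 were among the highest-scoring of their tumours. The score is the authors' own value, its scale is not given in the sources used here, and it is used only to rank peaks within a list. In tumours 1 to 6 with Myc on, the Ncl peak scored 362.33, 202.51, 482.72, 605.66, 794.65 and 858.82. It ranked 2, 9, 2, 2, 4 and 9 in lists of 19269, 21570, 25742, 38814, 41558 and 55763 peaks. Ncl was thus within the first 9 peaks of every tumour list. The best Npm1 peak ranked 73, 80, 280, 103, 80 and 33 in the same tumours, between 0.0592% and 1.09% of each list. The best Odc1 peak ranked 233, 1455, 341, 223, 1069 and 4234, and the best Cdk4 peak ranked 1349, 1443, 1184, 833, 265 and 1515. Those ranks correspond to 0.575% to 7.59% of the list for Odc1 and to 0.638% to 7.00% for Cdk4. In each of the 6 tumours Ncl came first and Npm1 second, while Odc1 stood above Cdk4 in tumours 1, 3 and 4 and below it in tumours 2, 5 and 6. Cdk4, the gene with 4 E-boxes in its upstream sequence, was thus not the one with the highest score. Npm1 had no sequence here and the sequences were not placed under the peaks, so a link between E-boxes and score was not tested.

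**Figure D2:**
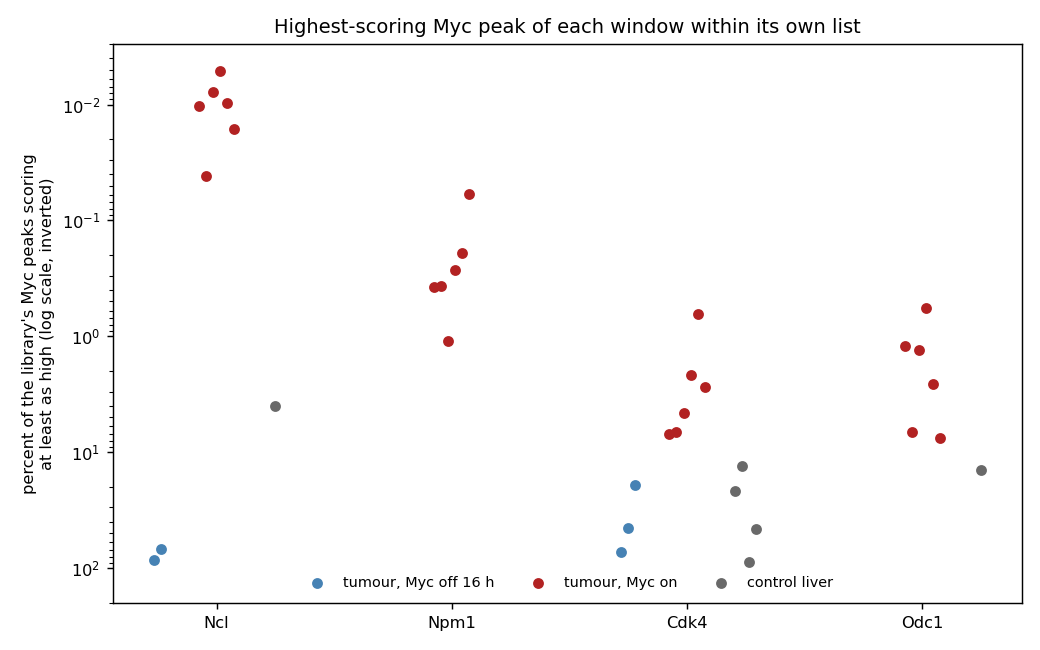
Percent of a library's Myc peaks that scored at least as high as its best peak in each gene window, on an inverted log axis, for libraries with a peak there. In the 6 tumours with Myc on (red), Ncl lies highest, at 0.00515% to 0.0417% of the list; the few peaks of tumours with Myc off (blue) and control livers (grey) lie lower.

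With Myc off for 16 h, Myc peaks remained at 2 of the genes. At Cdk4, all 3 tumours had 1 Myc peak on the main stretch, with widths of 0.232, 0.270 and 0.519 kb. They ranked 71 of 98, 150 of 331 and 46 of 239 peaks in their lists. At Ncl, tumours 2 and 3 had narrow Myc peaks on the stretch, of which the best ranked 282 of 331 and 165 of 239, and tumour 1 had none. Npm1 and Odc1 had no Myc peak in any of the 3 tumours. For comparison, of 11967 windows of 20 kb along the genome with a Myc peak in all 6 tumours with Myc on, 2.22% had a peak in at least 1 tumour with Myc off, and 0.259%, or 31 windows, had one in all 3. The lists with Myc off held 98 to 331 peaks, against 19269 to 55763 with Myc on. The number of reads behind a list is unknown, so a window without a peak means only that none was called.

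In control liver the window of Cdk4 was the only 1 of the 4 with a Myc peak in every library, but the position differed. Control livers 1, 2 and 3 had their peak at the third Cdk4 stretch, and control liver 4 had it at the first. Control liver 4 also had peaks on the stretches of Ncl and Odc1, ranking 339 and 1219 of 8499. The other 3 control livers had no Myc peak at Ncl or Odc1, and none of the 4 had one at Npm1. Lists of control livers 1 to 3 were shorter, at 1002 to 2816 peaks. Of the same 11967 windows, 50.5% had a Myc peak in at least 1 control liver and 1.80% in all 4.

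Coverage, the percent of a window under peaks, puts these maps on one scale. For Myc at Cdk4 it was 1.45%, 1.69% and 3.24% in the 3 tumours with Myc off, between 16.8% and 64.5% with a median of 23.3% in the 6 with Myc on, and 0.788%, 1.78%, 0.750% and 3.60% in the 4 control livers. At Ncl it was 0%, 0.456% and 0.552% with Myc off, between 10.1% and 48.2% with a median of 11.2% with Myc on, and 0%, 0%, 0% and 4.37% in control liver. The lowest tumour with Myc on was above every other library at both genes. At Npm1 coverage ran between 6.23% and 31.6% (median 9.97%) with Myc on and was 0% in all other libraries. At Odc1 it ran between 5.49% and 15.9% (median 7.61%) with Myc on, was 0% in the 3 tumours with Myc off, and was 0%, 0%, 0% and 4.64% in control liver. At each of the 4 genes every tumour with Myc on was above every other library, as in 41.7% of all windows tested. At all 4 genes tumour 6, which had the longest list, had the highest coverage.

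With Myc on against control liver, coverage by Myc was higher at 4 of 4 genes in a limma fit over 25215 windows, at a Benjamini-Hochberg adjusted p below 0.05, which sets the calls throughout. Of all windows, 53.3% were called higher and 0.226% lower, so such a call is common in these tumours. The difference was 30.0 ± 8.56 percentage points (± is the limma standard error for differences) at Cdk4 (limma adjusted p = 0.0133), and 46 windows of the genome had a larger one. It was 16.1 ± 6.21 at Ncl (limma adjusted p = 0.0404), 13.1 ± 3.99 at Npm1 (limma adjusted p = 0.0163) and 7.81 ± 2.15 at Odc1 (limma adjusted p = 0.0119). The median over all windows was 3.79 points. Windows of the genome were 20 kb long, unlike the 4 gene windows. Ranks of a gene among them, here and below, are therefore not like for like. The Ncl call was lost when 9 of the 13 libraries were left out singly, with limma adjusted p up to 0.0863, namely every control liver, every tumour with Myc off and tumours 4 and 5 with Myc on. Without tumour 6 the Ncl difference was 9.95 points and its limma adjusted p 0.000371. With the replicate number as a block, all 4 genes stayed past the threshold. The differences were then 9.62 points at Ncl, 8.38 at Npm1, 18.6 at Cdk4 and 5.55 at Odc1. Tumours 5 and 6 with Myc on have replicate numbers that no other group has, so they do not enter the differences of that fit. With the 2 wild-type livers as the only controls, none of the 4 was called by limma, at adjusted p of 0.143 to 0.207, although the differences were 15.0 points at Ncl, 13.1 at Npm1, 29.6 at Cdk4 and 6.65 at Odc1.

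With Myc off against Myc on, coverage by Myc was lower at 3 of 4 genes, where 47.7% of all windows were called lower and 0.00397% higher. The difference was -29.6 ± 9.37 points at Cdk4 (limma adjusted p = 0.0217), -13.1 ± 4.37 at Npm1 (limma adjusted p = 0.0257) and -8.97 ± 2.36 at Odc1 (limma adjusted p = 0.0144). At Ncl it was -16.9 ± 6.80 points and missed the threshold (limma adjusted p = 0.0518). Leaving out any 1 of the 3 tumours with Myc off ended all 3 calls, with limma adjusted p between 0.0650 and 0.0778. Ncl passed when only peaks at least 50% inside were counted (limma adjusted p = 0.0496). It also passed without tumour 1, 2, 3 or 6 with Myc on, and without tumour 6 the difference was -10.7 points. With wild-type controls only, which changes the shared variance of the fit, Npm1 (limma adjusted p = 0.0552) and Cdk4 (limma adjusted p = 0.0510) were not called and Odc1 was. Both contrasts use the same tumours with Myc on. None of the genes was called with Myc off against control liver, and 0% of all windows were called in either direction by limma; at an unadjusted p below 0.05 there were 0 windows higher, 59 lower and 0 of the 4 genes. When all Myc lists were cut to the 98 highest-scoring peaks, the length of the shortest list, Ncl kept a difference of 12.3 points between tumours with Myc on and control liver (limma adjusted p = 0.0262), and Npm1, Cdk4 and Odc1 were not called. With lists so cut, Myc at Ncl was lower with Myc off than with Myc on and was called (-12.3 points, limma adjusted p = 0.0258). Myc at Cdk4 was higher with Myc off than with Myc on, by 1.56 points (limma adjusted p = 0.0324), and neither Npm1 nor Odc1 was called. The ranks fix part of this outcome, since with Myc on no Cdk4 or Odc1 peak is among the first 98 of its list.

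Single Myc regions, made by merging the overlapping peaks of all libraries, were tested in the same way. Of 11 such regions in the 4 windows, 6 were called higher with Myc on than in control liver, against 47.2% of all 39145 regions. They were the main region of each gene and 2 more at Cdk4. The main Npm1 region, chr11:33060657-33064108, differed by 63.8 ± 12.7 points (limma adjusted p = 5.49e-06). This region had peaks in tumours with Myc on alone, so that group set its bounds. The sign of its differences was thus fixed in advance, and their p-values add no support. The same held for the Cdk4 region chr10:126497323-126497838. The main Odc1 region, chr12:17550821-17553274, differed by 59.0 ± 11.1 points (limma adjusted p = 1.56e-06). Between Myc off and Myc on, these differed by -63.8 ± 13.9 points at Npm1 (limma adjusted p = 3.84e-05) and -69.0 ± 12.2 at Odc1 (limma adjusted p = 3.87e-07), and 6 regions were called lower, against 44% of all regions. The call of the main Ncl region against control liver was lost without control liver 1, 2 or 3 (limma adjusted p up to 0.0644). The calls of the main Ncl and Cdk4 regions between Myc off and Myc on were lost without any 1 tumour with Myc off, and the one at Ncl also without control liver 4 (limma adjusted p up to 0.110). With wild-type controls only, the main Ncl and Cdk4 regions were not called, either with Myc on against control liver (limma adjusted p = 0.216 and 0.106) or with Myc off against Myc on (limma adjusted p = 0.0568 and 0.0503). With lists of equal length the main Ncl region kept both calls, at 45.6 and -45.6 points. The main Npm1 region then lost both, at 42.5 points (limma adjusted p = 0.0962) and -42.5 points (limma adjusted p = 0.132). The main Odc1 region had a difference of 0 in both contrasts. At the main Cdk4 region the difference was 0 for Myc on against control liver and 4.63 points, called higher, for Myc off against Myc on (limma adjusted p = 0.0269).

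**Figure D3:**
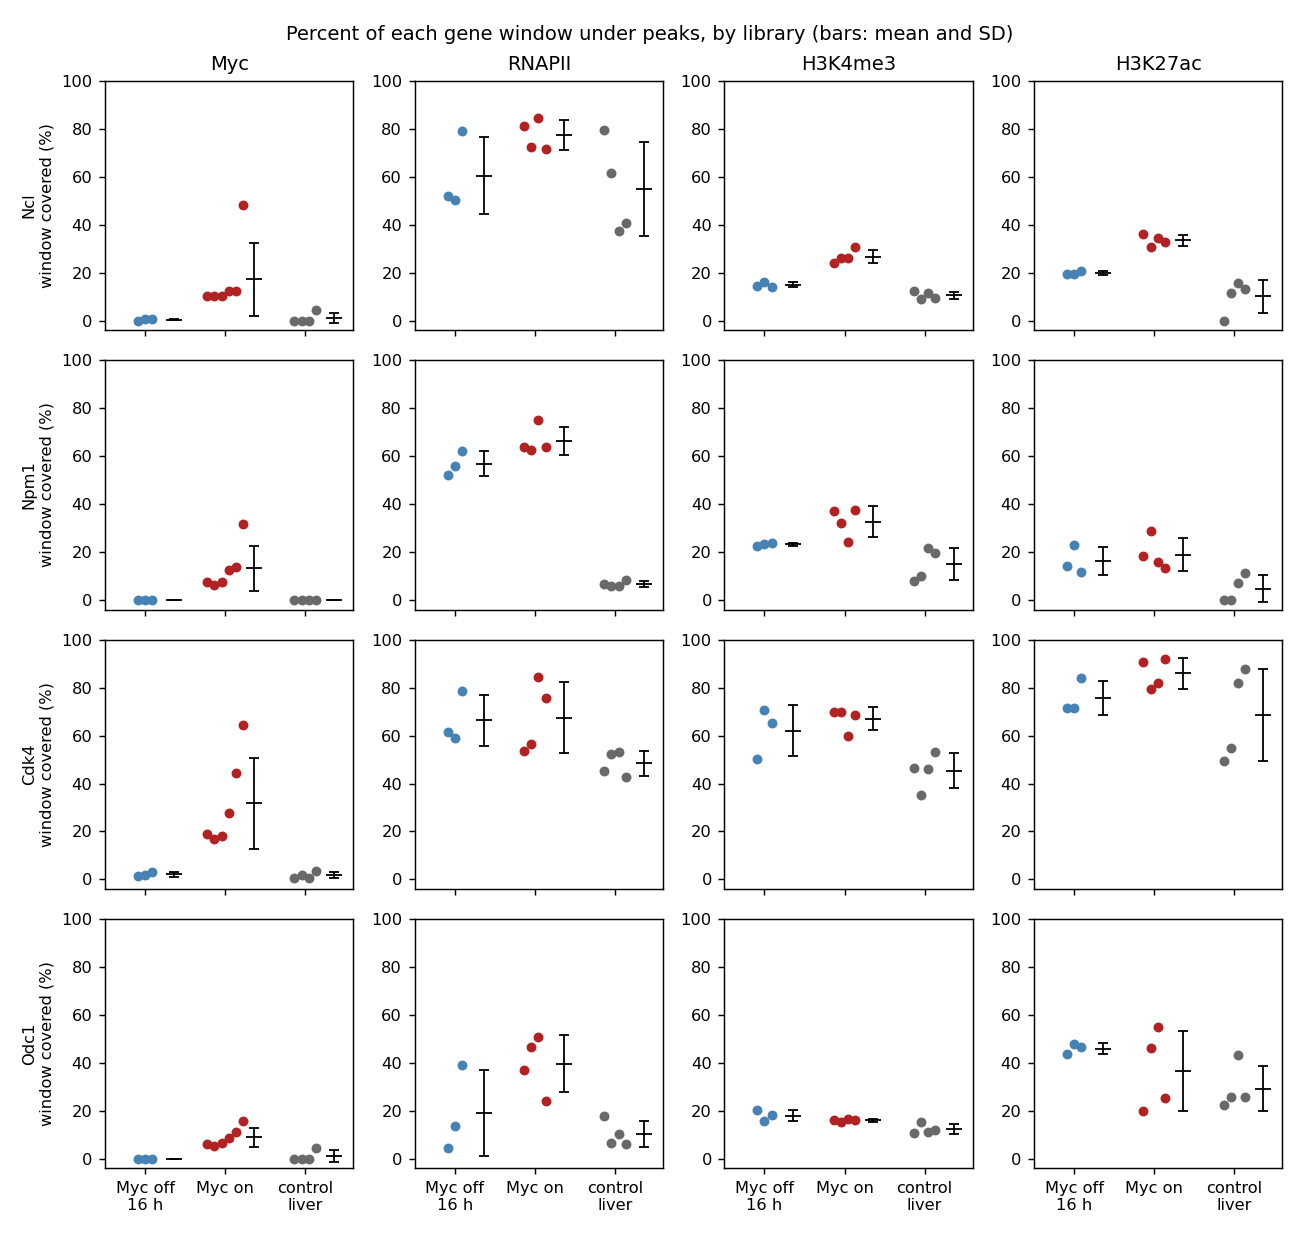
Percent of each gene window (down the page) under peaks of each antibody (across), with 1 point per library and the mean and SD beside each group: tumours with Myc off for 16 h (blue), tumours with Myc on (red) and control liver (grey). For RNAPII at Npm1, the tumours with Myc off lie between 52.3% and 62.4%, those with Myc on between 62.6% and 75.1%, and the control livers between 5.74% and 8.50%.

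The widest gap between tumours and control liver in RNAPII was at Npm1. Coverage of the Npm1 window was 52.3%, 56.1% and 62.4% in tumours with Myc off, 63.8%, 62.6%, 75.1% and 63.8% in tumours with Myc on, and 6.70%, 5.74%, 5.89% and 8.50% in control liver. Every tumour was far above every control liver, with or without Myc, and tumours and control livers were so separated in 1.71% of all windows. In control liver the RNAPII peak lay at the Myc stretch and was 1.43 to 1.79 kb wide, with 1 small further peak in control liver 4. In tumours with Myc on a single peak of 15.7 to 20.6 kb reached from there across the window. Tumour 3 with Myc off had such a peak too, of 15.6 kb. The RNAPII list of that tumour covered 146 Mb in all, against 69.9 and 102 Mb in tumours 1 and 2 with Myc off. In tumours 1 and 2 with Myc off, a peak of 1.66 and 1.75 kb at the Myc stretch stood apart from a long peak farther on.

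With Myc on against control liver, RNAPII coverage at Npm1 differed by 59.6 ± 5.52 points (limma adjusted p = 9.77e-05). It was the 1 gene of the 4 called, where 2.45% of 22716 windows were called higher and 7.58% lower, and 128 windows, or 0.564%, had a larger difference. With Myc off against control liver the Npm1 difference was 50.2 ± 5.96 points (limma adjusted p = 0.000521), again the 1 gene called, against 3.56% of windows called higher and 4.19% lower. Between tumours with Myc off and with Myc on it was -9.40 ± 5.96 points and not called (limma adjusted p = 0.447). Leaving out each library in turn kept both Npm1 calls, with differences of 56.7 to 60.9 points for Myc on against control liver and 47.5 to 52.5 for Myc off against control liver.

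At Odc1, RNAPII coverage was 4.39%, 13.8% and 39.2% in tumours with Myc off, 37.0%, 46.8%, 50.8% and 24.1% in tumours with Myc on, and 17.9%, 6.70%, 10.3% and 6.18% in control liver. All 4 tumours with Myc on were above all 4 control livers, while the tumours with Myc off spread over both ranges; in 5.59% of all windows the tumours with Myc on were likewise above control liver. The difference between Myc on and control liver was 29.4 ± 8.57 points and missed the threshold (limma adjusted p = 0.0579). It passed when tumour 4 with Myc on (34.6 points, limma adjusted p = 0.0320) or tumour 1 or 3 with Myc off was left out. As a merged region, chr12:17550066-17562638, it was called (49.1 ± 15.6 points, limma adjusted p = 0.0386, against 3.89% of merged regions called higher), but not when 8 of the 11 libraries were left out singly, with limma adjusted p up to 0.131. Those 8 were all 4 control livers, tumours 1, 2 and 3 with Myc on and tumour 2 with Myc off. The region was also not called with lists of equal length (48.7 points, limma adjusted p = 0.0582) or with wild-type controls only (52.5 points, limma adjusted p = 0.180).

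RNAPII at Ncl and Cdk4 was broad in control liver too. Ncl coverage was 52.0%, 50.4% and 79.1% with Myc off, 81.0%, 72.6%, 84.7% and 71.7% with Myc on, and 79.7%, 61.6%, 37.4% and 40.7% in control liver. One peak spanned the Ncl window for 19.3 to 24.6 kb in all 4 tumours with Myc on, in tumour 3 with Myc off (21.3 kb) and in control liver 1 (21.5 kb). In the other libraries a peak of 1.58 to 2.22 kb over the Myc stretch was separate from the rest. The RNAPII lists of tumour 3 with Myc off and control liver 1 covered the most in their groups, at 146 and 124 Mb. That of tumour 4 with Myc on, which also had 1 long peak, covered 40.9 Mb. The part that list breadth played was not tested. Cdk4 coverage was 61.6%, 59.0% and 78.6% with Myc off, 53.8%, 56.5%, 84.4% and 75.6% with Myc on, and 45.3%, 52.5%, 53.4% and 42.8% in control liver. Neither gene was called in any contrast: with Myc on against control liver, Ncl differed by 22.6 ± 10.5 points (limma adjusted p = 0.225) and Cdk4 by 19.1 ± 8.31 (limma adjusted p = 0.203). With wild-type controls only, the Ncl difference was 38.4 points (limma adjusted p = 0.0523). None of the 4 genes was called with Myc off against Myc on, where 0.858% of windows were called lower and 3.29% higher. At an unadjusted p below 0.05, too, the limma count was 0 of 4 genes, against 1216 of 22716 windows lower and 2909 higher. The largest of the 4 differences was -20.6 ± 9.25 points, at Odc1 (limma adjusted p = 0.277).

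H3K4me3 peaks overlapped the main Myc stretch of each gene in all 11 libraries, control liver included. What differed was how far it extended. At Ncl the H3K4me3 peak was 3.94, 4.32 and 3.77 kb wide in tumours with Myc off, 6.46, 7.03, 7.01 and 8.26 kb in tumours with Myc on, and 3.28, 2.48, 3.08 and 2.56 kb in control liver. The median peak of a list was 2.61 to 2.74 kb wide with Myc off, 2.27 to 2.80 kb with Myc on and 2.32 to 2.51 kb in control liver. The Ncl peak was among the widest 23.4% to 30.2% of its list with Myc off. With Myc on it was among the widest 1.53% to 5.17% of its list, and in control liver among the widest 28.6% to 47.4%. At Npm1 the widths were 3.28, 3.46 and 3.48 kb with Myc off, 7.47, 8.03, 4.12 and 7.33 kb with Myc on, and 2.02, 2.54, 2.04 and 2.08 kb in control liver. The Npm1 peak was among the widest 34.7% to 35.5% of its list with Myc off, 1.53% to 13.4% with Myc on and 43.0% to 64.2% in control liver. The 3 groups did not overlap in width at either gene, and in coverage of both windows, too, every tumour with Myc on was above every tumour with Myc off, and these were above every control liver. That order of coverage without overlap held in 0.196% of all windows tested.

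**Figure D4:**
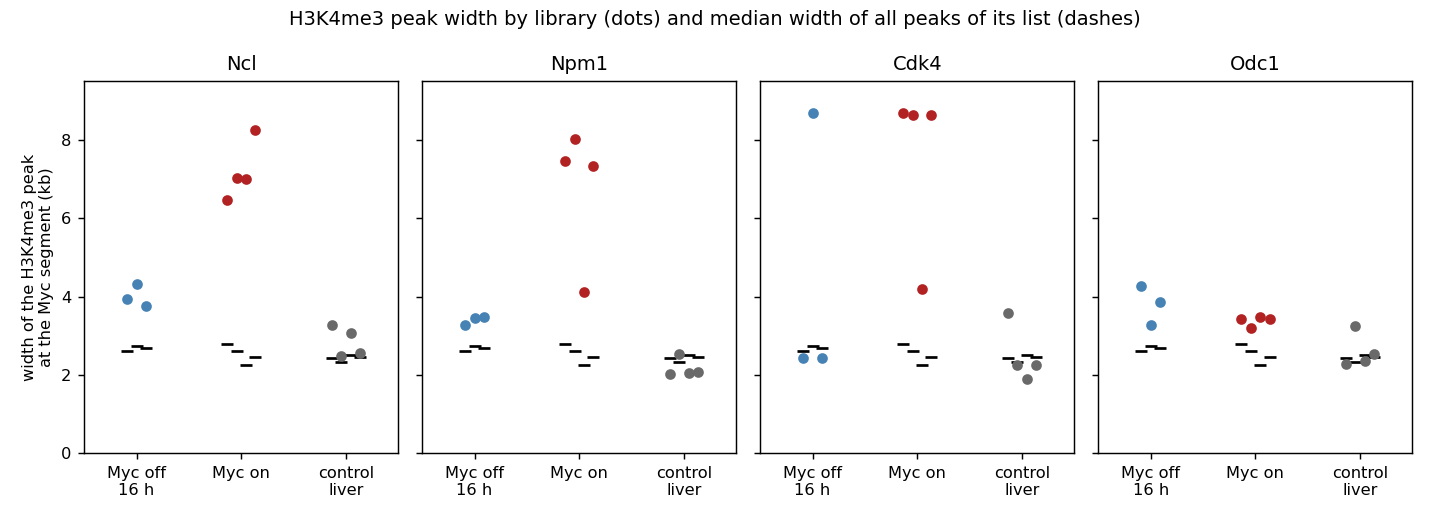
Width in kb of the H3K4me3 peak over the main Myc stretch of each gene, 1 dot per library, with a dash at the median width of all peaks of that library's list. At Ncl the tumours with Myc off (3.77 to 4.32 kb) lie below the tumours with Myc on (6.46 to 8.26 kb) and above the control livers (2.48 to 3.28 kb), while at Odc1 the groups with Myc off and on overlap.

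Coverage of the windows by H3K4me3 followed these widths. At Ncl it was 14.6%, 16.0% and 14.0% with Myc off, 23.9%, 26.0%, 26.0% and 30.6% with Myc on, and 12.1%, 9.19%, 11.4% and 9.48% in control liver. With Myc on against control liver 3 of 4 genes were called higher, against 6.26% of 19887 windows called higher and 5.78% lower. The difference was 16.1 ± 1.50 points at Ncl (limma adjusted p = 8.41e-05), 17.9 ± 3.72 at Npm1 (limma adjusted p = 0.0111) and 21.9 ± 5.33 at Cdk4 (limma adjusted p = 0.0248). At Odc1 it was 3.72 ± 1.36 points and not called (limma adjusted p = 0.116). The calls at Ncl and Npm1 held without any 1 of the 11 libraries. The call at Cdk4 was lost without control liver 1 or 2 or without tumour 1, 2 or 4 with Myc on, with limma adjusted p up to 0.0645. Odc1 passed without control liver 2, at 4.73 points (limma adjusted p = 0.0424). With wild-type controls only, Npm1 (12.2 points, limma adjusted p = 0.0787) and Cdk4 (17.4 points, limma adjusted p = 0.130) were not called, and Ncl was.

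Between Myc off and Myc on, H3K4me3 at Ncl differed by -11.8 ± 1.62 points (limma adjusted p = 0.000525). It was the 1 gene of the 4 called lower, where 0.241% of windows, 48 in number, were called lower and 22.6% were called higher. Only 38 windows had a more negative difference, and the median over all windows was 2.92 points. The value ran from -12.7 to -10.5 points as each library was left out, and the call held each time. At Npm1 the difference was -9.51 ± 4.01 points over the window and not called (limma adjusted p = 0.115). Over the merged region at the Npm1 stretch alone, chr11:33056048-33064484, it was -39.5 ± 10.4 points and called (limma adjusted p = 0.0183), as was the Ncl region chr1:88249961-88258451, at -37.4 ± 7.05 points (limma adjusted p = 0.00257), against 0.292% of merged regions called lower. The other Npm1 region, at the far end of the window, had H3K4me3 in all 3 tumours with Myc off, 3 of 4 with Myc on and 2 of 4 control livers. At Cdk4 the difference was -5.04 ± 5.76 points (limma adjusted p = 0.565) and at Odc1 1.96 ± 1.47 (limma adjusted p = 0.365).

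The H3K4me3 coverage at Ncl with Myc off against control liver differed by 4.30 ± 1.62 points (limma adjusted p = 0.0602) and at Npm1 by 8.41 ± 4.01 (limma adjusted p = 0.123). Cdk4, at 16.8 ± 5.76 points (limma adjusted p = 0.0426), and Odc1, at 5.68 ± 1.47 (limma adjusted p = 0.0144), were called higher. In that contrast 35.8% of all windows were called higher and 2.9% lower. The Cdk4 call held in 3 of the 11 fits with 1 library left out. It was lost without control liver 1, 2 or 3, without tumour 1, 2 or 4 with Myc on, or without tumour 2 or 3 with Myc off, with limma adjusted p up to 0.153. Ncl passed without tumour 1 or 4 with Myc on, and the Odc1 call held each time. With the replicate number as a block, neither Cdk4 (limma adjusted p = 0.0737) nor Odc1 (limma adjusted p = 0.0542) was called. The Cdk4 call was also lost with lists of equal length (4.81 points, limma adjusted p = 0.500), with wild-type controls only (12.4 points, limma adjusted p = 0.187) and without a filter on low coverage (16.8 points, limma adjusted p = 0.0501). Lists of H3K4me3 were longest with Myc off, at 18502 to 19876 peaks, against 14502 to 14942 with Myc on and 12999 to 15821 in control liver.

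The Cdk4 window showed a change of pattern as well as of width. H3K4me3 covered 50.5%, 70.8% and 65.1% of it with Myc off, 70.1%, 70.0%, 60.0% and 68.7% with Myc on, and 46.4%, 35.4%, 46.3% and 53.2% in control liver. In control liver it formed separate peaks at the first and at the third Myc stretch. These stretches are farther apart than the Cdk4 span of 3.75 kb in GRCm38.p6, so they cannot both lie in the gene. The second stretch, between them, had H3K4me3 in 2 of 3 tumours with Myc off, in 4 of 4 with Myc on and in 0 of 4 control livers. In tumours 1, 2 and 4 with Myc on and tumour 2 with Myc off, 1 peak of 8.64 to 8.69 kb ran from the first stretch to the third. In the other libraries the peak at the first stretch was 1.91 to 4.20 kb wide. At Odc1 coverage was 20.3%, 15.6% and 18.4% with Myc off, 16.4%, 15.2%, 16.6% and 16.3% with Myc on, and 10.9%, 15.4%, 11.2% and 12.1% in control liver. The Odc1 tumours thus overlapped each other, and control liver 2 lay within their range.

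H3K27ac followed H3K4me3 at Ncl. Coverage there was 19.5%, 19.4% and 20.6% with Myc off, 35.9%, 30.7%, 34.4% and 32.7% with Myc on, and 0%, 11.6%, 15.7% and 13.0% in control liver, and the 3 groups did not overlap. That order without overlap was found in 0.0855% of all windows. The peak over the Ncl stretch was 5.23 to 5.58 kb wide with Myc off, 8.30 to 9.77 kb with Myc on and 3.13 to 4.24 kb in the 3 control livers that had one. With Myc on against control liver the difference was 23.4 ± 4.20 points (limma adjusted p = 0.00482), and Ncl was the 1 gene of the 4 called, against 7.62% of 25728 windows called higher and 5.17% lower. It kept this call without each library in turn, at 20.0 to 25.3 points. Between Myc off and Myc on the difference was -13.6 ± 4.53 points and missed the threshold (limma adjusted p = 0.0788). Of the 11 libraries left out in turn, it passed without control liver 1 (limma adjusted p = 0.0468). None of the 4 genes was called in that contrast, where limma called 0.264% of windows lower and 10.9% higher. At an unadjusted limma p below 0.05 the count was 1, which was Ncl. At that limit 279 of 25728 windows were lower and 6864 higher. The median over all windows was 8.35 points, and the Ncl difference ran against it.

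At Npm1, H3K27ac coverage was 14.1%, 22.8% and 11.5% with Myc off, 18.4%, 28.6%, 15.7% and 13.2% with Myc on, and 0%, 0%, 7.06% and 11.4% in control liver. Every tumour was above every control liver, as in 8.85% of all windows. With Myc on against control liver the difference was 14.4 ± 4.48 points over the window and not called (limma adjusted p = 0.0648). Over the merged region chr11:33056960-33064121 it was 50.1 ± 14.6 points and called (limma adjusted p = 0.0303, against 9.88% of merged regions called higher). That call was lost without control liver 1 or 2, without tumour 1 or 2 with Myc on or without tumour 1 with Myc off, with limma adjusted p up to 0.0906. It was also lost with a stricter score (66.2 points, limma adjusted p = 0.0768), with lists of equal length (56.3 points, limma adjusted p = 0.0512) and with wild-type controls only (34.0 points, limma adjusted p = 0.214). The 2 control livers with no H3K27ac peak at Npm1 were those that carried tet-Myc or LAPtTA, and both wild-type livers had one. Their H3K27ac lists were also the shortest of this antibody, at 9696 and 11202 peaks, against 14140 and 13573 in the wild-type livers. Genotype and list length cannot be told apart here. The Npm1 window with Myc off against Myc on differed by -2.82 ± 4.84 points (limma adjusted p = 0.782).

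At Cdk4 and Odc1, every library had an H3K27ac peak over the Myc stretch. Cdk4 coverage was 71.6%, 71.5% and 84.1% with Myc off, 91.0%, 79.3%, 81.9% and 92.0% with Myc on, and 49.5%, 55.0%, 82.1% and 87.7% in control liver. The 2 wild-type control livers were within the range of the tumours. Control livers 1 and 2, which had the shorter H3K27ac lists, lay below it. Odc1 coverage was 43.6%, 47.7% and 46.7% with Myc off, 20.2%, 46.2%, 55.0% and 25.6% with Myc on, and 22.7%, 25.7%, 43.4% and 25.6% in control liver. Tumours 1 and 4 with Myc on lay well below the other 2, near 3 of the control livers. With Myc on against control liver the differences were 17.5 ± 8.66 points at Cdk4 (limma adjusted p = 0.232) and 7.40 ± 8.33 at Odc1 (limma adjusted p = 0.632). With 1 library left out they ran from 11.1 points (without control liver 1) to 23.9 (without control liver 4) at Cdk4 and from 1.30 (without tumour 3 with Myc on) to 12.9 (without tumour 1 with Myc on) at Odc1, none called. None of the 4 genes was called for H3K27ac with Myc off against control liver, against 25.5% of windows called higher and 2.82% lower by limma. At an unadjusted limma p below 0.05 the count was 1, which was Npm1. At that limit 9256 of 25728 windows were higher and 1117 lower.

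**Figure D5:**
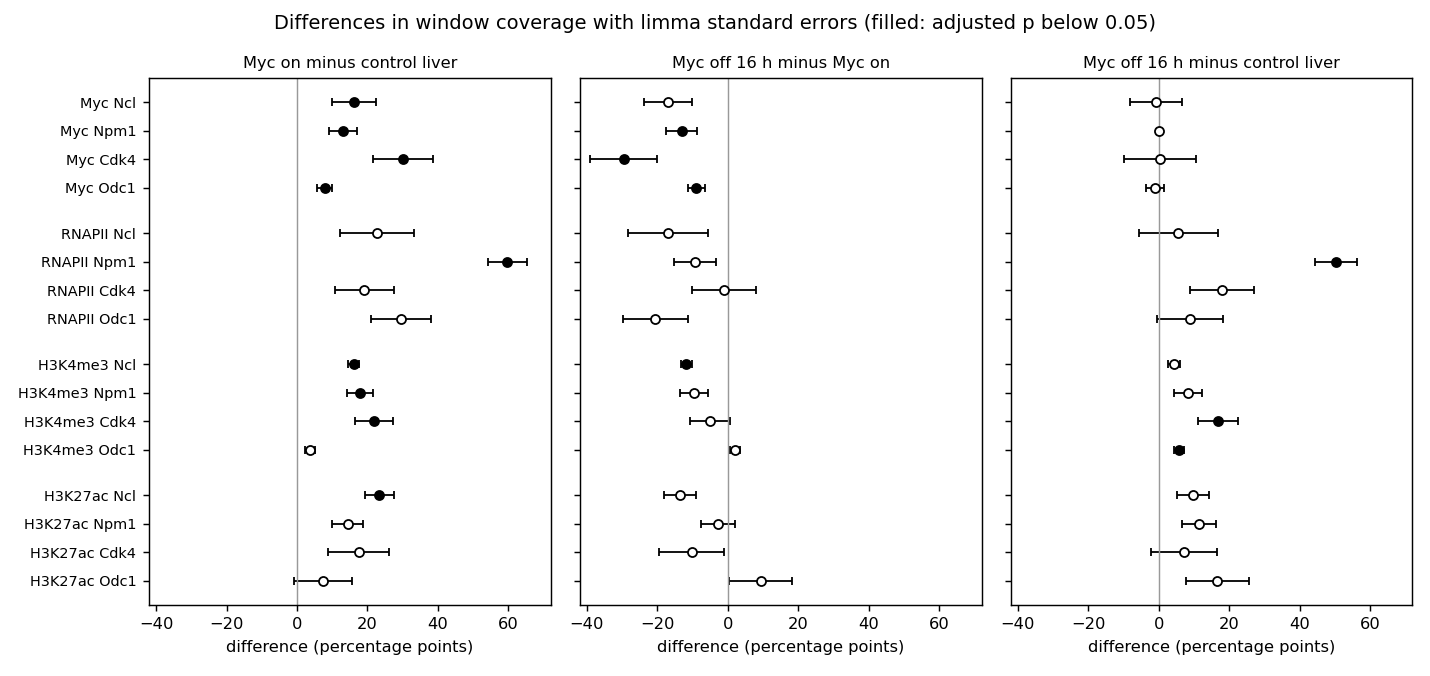
Difference in window coverage in percentage points, with limma standard errors, for Myc on minus control liver, Myc off minus Myc on and Myc off minus control liver; filled points have an adjusted p below 0.05. In the middle panel the filled points are Myc at Npm1, Cdk4 and Odc1 and H3K4me3 at Ncl, all below 0.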

How the data were processed

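ChIP-seq peak lists of 46 of the 47 samples were used, 1 list per library, and the input sample was not analysed here. BWA 0.6.2, SAMtools and the build mm9 are named in the submitters' processing notes. The Myc, H3K4me3 and H3K27ac lists deposited by the authors give a score per peak, whose scale, like the caller's version, threshold and control, is not given in the sources used here. Those of RNAPII, also deposited by the authors, give positions only. No list holds read counts, so depth and its counting error are unknown. The median Myc peak of a list was 77 to 90 bp wide with Myc off, 428 to 762 bp with Myc on and 78 to 444 bp in control liver, so a control peak or one with Myc off can cover less of a window. Groups came from the titles and genotypes.

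Peaks were merged within a library, and the percent covered was computed for the 4 gene windows and for all 20 kb windows of the genome covered in at least 2 libraries of an antibody. Overlap meant at least 1 bp. Merged regions of all libraries were treated likewise. limma 3.58.1 (R 4.3.3) fitted all groups of an antibody together, on the percent scale, with Benjamini-Hochberg adjustment over all windows or regions at 0.05, after a test of the step on simulated data. Python 3.11.15 with numpy 2.4.6, pandas 2.3.3 and matplotlib 3.10.9 did the rest. The genes, windows and tests were chosen with earlier results of these data known. All 4 genes are named. The main region of a gene and antibody is the merged region with the most bases inside the window. For Myc it was chr1:88251178-88258469 at Ncl and chr10:126499441-126504853 at Cdk4. At Cdk4 it was chr10:126492752-126509790 for H3K27ac and chr10:126471511-126511245 for RNAPII. Of the 39735 bp of that RNAPII region, 16001 lie inside the window.

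Replicate numbers in the titles were checked for pairing by the correlation of same-numbered libraries' deviations from their group means. Only for Myc, tumours with Myc on against control liver, was it over 0.1 in each of 4 pairs (0.120 to 0.336). The labels name no shared animal or day, so the reported fits were unpaired there too. The replicate block was run only as an alternative. The alternatives were no filter on low coverage, 10 kb windows, a stricter score (the median of all peaks of the antibody), lists of equal length, at least 50% of a peak inside the window, wild-type controls only, the replicate block and leaving out each library.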

Additional observations from a re-analysis of the deposited data

Results flagged for a closer look

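Among 31 groups of 4 to 6 libraries with unequal coverage of a gene window, 7 had a library whose gap to its nearest neighbour was larger than Dixon's limit allows. For independent, normally spread values chance gives about 1 in 20 such groups. These groups reuse the same libraries across genes, so the count cannot be set against that rate. For Myc, tumour 6 with Myc on was high at Ncl (48.2% of the window covered, against 10.1% to 12.5% in the other 5) and at Npm1 (31.6%, against 6.23% to 13.7%). It also had the longest Myc list, with 55763 peaks. Control liver 4 was high for Myc at Ncl (4.37%) and at Odc1 (4.64%), where the other 3 control livers had no peak, and its Myc list held 8499 peaks against 1002 to 2816. Tumour 3 with Myc on was high for RNAPII at Npm1 (75.1%) and low for H3K4me3 at Cdk4 (60.0%, against 68.7% to 70.1%). Control liver 3 was high for H3K27ac at Odc1 (43.4%, against 22.7% to 25.7%). The part that list length played in these values was not tested.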

How the results depend on the processing

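Counts of the 4 genes called moved with some choices. The share of all windows or regions called was counted only in the reported fits, not in the alternatives given here and above. A change in calls over the whole genome and one at these genes therefore cannot be told apart. For Myc with Myc on against control liver, the count of 4 was 1 with lists of equal length and 0 with wild-type controls only, and 3 to 4 as each library was left out. For Myc with Myc off against Myc on, the count of 3 was 1 with wild-type controls only, 4 when only peaks at least 50% inside counted (Ncl added), 2 with lists of equal length (Ncl lower, Cdk4 higher) and 0 to 4 with 1 library left out. For H3K4me3 with Myc on against control liver, the count of 3 was 1 with wild-type controls only and 2 to 3 with 1 library left out. The H3K4me3 count of 1 with Myc off against Myc on was 2 with a stricter score and 2 with lists of equal length, where Npm1 also passed. Its count of 2 with Myc off against control liver was 1 without a filter, 1 with lists of equal length, 1 with wild-type controls only, 0 with the replicate block and 1 to 2 with 1 library left out. For H3K27ac with Myc off against Myc on, the count of 0 was 1 with wild-type controls only and 0 to 1 with 1 library left out. For RNAPII with Myc on against control liver, the count of 1 was 1 to 2. Equal length cuts each Myc list to 98 peaks. The Ncl difference for Myc on against control liver was then 12.3 points, and those at Cdk4 and Odc1 were 0. No Cdk4 or Odc1 peak was among the first 98 of any list with Myc on or of control liver, so these 0 values follow from the cut. The causes of the other changes were not tested. The replicate block ended the H3K4me3 call at Cdk4 for Myc on against control liver (21.9 points, limma adjusted p = 0.0715) and brought Ncl past the threshold for Myc with Myc off against Myc on (-9.53 points). Beyond these and the H3K4me3 count above, it changed no call over the gene windows. In those contrasts the libraries share only a number.

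Differences that changed sign, in points, are given over the window and, after "main region", over that region. With equal lists, Myc at Cdk4 with Myc off against Myc on was 1.56 (main region 4.63). Against control liver, Myc with Myc off was 0.0923 at Ncl (main region 0.0349) with the replicate block and -0.0479 at Cdk4 with wild-type controls only. RNAPII at Cdk4 with Myc off against Myc on was 5.69 when only peaks at least 50% inside counted. H3K27ac at Cdk4 with Myc off against control liver was -9.15 (main region -8.60) with wild-type controls only. With 1 library left out, these differences with Myc off against control liver crossed 0. Myc ran from -1.12 to 0.336 at Ncl (main region -4.15 to 1.24) and from -0.161 to 1.02 at Cdk4. RNAPII ran from -3.68 to 13.9 at Ncl (main region -3.89 to 14.7), from -1.16 to 16.2 at Odc1 (main region -1.95 to 27.1) and from -5.25 to 11.5 at the main region of Cdk4. Of the differences between Myc off and Myc on, RNAPII at Cdk4 ran from -7.23 to 4.49, H3K4me3 at Cdk4 from -9.38 to 0.795 and H3K27ac at Npm1 from -6.15 to 0.401 (main region -21.5 to 1.40). All but the first of these were uncalled in the reported fit. The Myc ranks moved by less than their spread when only peaks at least 50% inside counted. RNAPII lists have no score, so the stricter limit was not run on them.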
